A study of Mus musculus with 16 samples.

Results

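The 10 apolipoprotein genes Apoa1, Apoa2, Apoa4, Apoa5, Apob, Apoc1, Apoc2, Apoc3, Apoe and Apom were followed in mouse liver across genotype and feeding. They were selected by gene symbol, each matched 1 row, and they were 10 of 53714 genes in the count table. The 16 liver samples came from male mice of 9 weeks. All mice carried the strain label C57BL/6 Slc25a47tm1c(EUCOMM)Hmgu, which in the EUCOMM naming scheme is a conditional allele of Slc25a47, a gene for a mitochondrial carrier protein of the liver. Mice labelled Slc25a47hep-/- are called KO here and those labelled Slc25a47hep+/+ are called WT. Each genotype was taken either in the fed state on chow diet or after overnight fasting, which made 4 groups of 4 samples (WT and KO, each fed or fasted). The labels do not name the Cre driver of the deletion. Polyadenylated RNA of whole flash-frozen liver was sequenced with strand-marking libraries, so each value is a transcript level in bulk tissue.

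Apolipoproteins are the proteins that wrap the lipid of lipoprotein particles and direct where the particles go. The liver builds very-low-density lipoprotein around apolipoprotein B to export triglyceride, and it secretes apolipoprotein A-I and A-II, the main proteins of high-density lipoprotein. The small exchangeable members move between particles and act on them there, by activating or inhibiting lipoprotein lipase or by binding the receptors that clear remnants.

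Total counts in genes were 19.6 to 27.4 M per library. All 12 hepatocyte markers were detected in every group, with a summed level of 100730 to 152859 CPM (the count scaled to a fixed library size, with TMM factors between libraries). Slc25a47 transcripts had a mean of 637 ± 154 CPM in fed WT, 126 ± 32.2 in fed KO, 949.5 ± 129 in fasted WT and 261 ± 77.2 in fasted KO (SD, n = 4), and the KO libraries lay below the WT libraries of the same feeding state. A pair of fasted WT libraries stood apart: the summed level of 14 pancreatic acinar markers was 1720 CPM in library 2 and 476 CPM in library 4, against 7.85 and 40.3 CPM in libraries 1 and 3, 24.8 to 32.1 CPM in fed WT, 7.47 to 22.8 CPM in fed KO and 4.62 to 75.9 CPM in fasted KO. The members' fold changes and the list counts that use fasted WT are therefore also given without libraries 2 and 4. Ratios of genes are given with all libraries.

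Of the 10 genes, 7 lie in clusters. On chromosome 9, Apoa1 (46228580 to 46230466, plus strand), Apoc3 (46232933 to 46235636, minus), Apoa4 (46240696 to 46243459, plus) and Apoa5 (46268633 to 46271919, plus) span 43340 bp of GRCm38, with gaps of 2466, 5059 and 25173 bp between neighbours. On chromosome 7, Apoc2 (19671579 to 19677941), Apoc1 (19689481 to 19692660) and Apoe (19696109 to 19699188) lie on the minus strand within 27610 bp, with Apoc4 between Apoc2 and Apoc1. Apoa2 lies on chromosome 1 (171225054 to 171226379, plus), Apob on chromosome 12 (7977648 to 8016835, plus) and Apom on chromosome 17 (35128997 to 35132050, minus). All 10 are annotated as protein coding.

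Sequences upstream of the gene starts are shown for the 3 plus-strand genes of the chromosome 9 cluster, which changed in different directions between the same groups, and for Apob, which rose with fasting in both genotypes. They come from the RefSeq promoter windows of GRCm38.p6, all on the plus strand, and capitals mark the TATA box motif TATAAA. The stretches of Apoa1, Apoa4 and Apob end just before the annotated gene start, and that of Apoa5 ends just before the first of its 2 RefSeq starts, which lies upstream of the annotated one.
Apoa1, chr9:46228380-46228579: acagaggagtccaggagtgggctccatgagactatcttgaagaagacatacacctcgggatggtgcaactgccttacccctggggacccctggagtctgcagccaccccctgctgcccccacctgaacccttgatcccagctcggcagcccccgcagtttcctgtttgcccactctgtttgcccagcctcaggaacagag
Apoa4, chr9:46240594-46240695: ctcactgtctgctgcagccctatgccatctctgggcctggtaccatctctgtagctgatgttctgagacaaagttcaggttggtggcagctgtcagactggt
Apoa5, chr9:46268408-46268607: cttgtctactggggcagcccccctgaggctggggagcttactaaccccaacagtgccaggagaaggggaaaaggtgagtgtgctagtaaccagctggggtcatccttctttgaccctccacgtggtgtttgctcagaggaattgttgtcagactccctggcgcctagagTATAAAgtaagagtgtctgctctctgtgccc
Apob, chr12:7977448-7977647: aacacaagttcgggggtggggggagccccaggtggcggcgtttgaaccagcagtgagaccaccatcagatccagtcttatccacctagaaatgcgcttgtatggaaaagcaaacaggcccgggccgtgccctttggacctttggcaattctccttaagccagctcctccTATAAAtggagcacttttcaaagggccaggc
In Apoa5 the motif lies 31 to 26 bases before the first RefSeq start and 56 to 51 bases before the other. In Apob it lies 60 to 55 bases before the RefSeq start, and closer to the annotated gene start, which lies upstream of the RefSeq one. The stretches of Apoa1 and Apoa4, which changed in opposite directions in fed KO liver, held none of the motifs searched. Windows of 250 bases before to 50 after a start were present for 8 of the 10 genes (12 windows; not Apoc1 and Apoc3). Searched on both strands, TATAAA stood in 5 of the 12 windows, which were 1 of Apoa2, both of Apoa5, and 1 each of Apob and Apoe. It stood in 13.6% of all 32851 promoter windows. The Apoe window that held it lies inside the annotated gene, and in Apoa2 it lies 212 to 207 bases before the start. The 2 windows of Apoa5 overlap and hold the same site, so the 5 windows stand for 4 genes. The CCAAT box CCAAT stood in 2 windows, both of Apoa2, against 37.4% of all. The cyclic AMP response core TGACG was found in 2 windows, 1 of Apoa2 and 1 of Apoc2, against 20.8% of all. The nuclear receptor hexamer AGGTCA, whose search was added after values were seen and which is part of both direct repeats below, was found in 2 windows, of Apoa2 and Apoc2, against 16.3% of all. No member window held the HNF4 core CAAAGTCCA (0.475% of all windows), the HNF1 site (0.00913%), the direct repeat 1 (0.0396%) or the direct repeat 4 (0.0152%). These matches describe letters only.

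Levels of different genes were compared as RPKM, the CPM divided by the exon length in kilobases, the scale on which longer genes do not appear higher. In fed WT liver Apoa2 was highest at 8819 RPKM, followed by Apoa1 at 7290, Apoe at 5440, Apoc1 at 2901 and Apoc3 at 1248 RPKM. Apoa5 had 576 RPKM, Apob 467, Apom 248, Apoa4 160.5 and Apoc2 3.74 RPKM (means, n = 4). No neighbours in that order overlapped between libraries in fed WT. The level of Apoc2 is uncertain in every group, because reads shared with an overlapping gene may have been left uncounted. In fed KO the ranges of Apoa5 and Apoa4 overlapped, since their means were 298.3 and 298 RPKM. In fasted WT 4 neighbouring pairs overlapped, which were Apoa2 with Apoa1, Apoc1 with Apoa4, Apoa4 with Apoc3, and Apoa5 with Apob. In fasted KO 3 pairs overlapped: Apoe with Apoa1, Apoa4 with Apoc1, and Apoa5 with Apob. Apoa4 moved most in the order, from rank 9 in fed WT to rank 8 in fed KO, 5 in fasted WT and 4 in fasted KO. Together the 10 genes held 3.53 ± 0.164% of gene reads in fed WT, 3.28 ± 0.161% in fed KO, 4.23 ± 0.233% in fasted WT and 3.90 ± 0.118% in fasted KO (SD, n = 4), values given without a test.

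**Figure D1:**
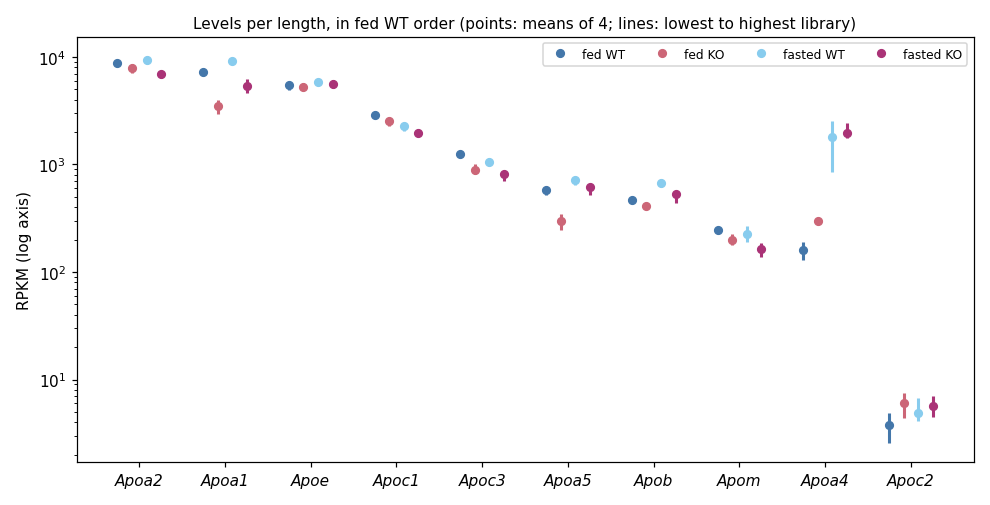
Mean RPKM (log axis) of each apolipoprotein gene in the 4 groups, ordered by the fed WT level; points are means of 4 libraries and lines run from the lowest to the highest library. Apoa4 climbs from 160.5 RPKM in fed WT to 1800 in fasted WT and 1961 in fasted KO, while Apoe stays between 5276 and 5805.

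Changes were tested with edgeR's quasi-likelihood test over 13905 genes, with Benjamini-Hochberg adjustment and a threshold of 0.05; all 10 apolipoprotein genes passed the filter on low counts. Log2 fold changes are given with their standard error (SE). Intervals of 95% use a normal multiplier of the SE, so they are narrower than the quasi-likelihood test would give. The labels do not say more of the replicates than that they are separate samples, so p-values measure the spread between these samples. In bulk liver, fewer hepatocytes and less RNA per hepatocyte cannot be told apart. In the fed state 2 of the 10 genes were higher in KO than in WT (background 14.0% of all genes tested) and 4 were lower (16.9%), with a median log2 fold change of −0.20 against −0.01 for all genes. The 2 higher genes were Apoa4 and Apoc2, and Apoc2 had very low counts. After fasting none of the 10 was higher in KO (13.8% of all genes tested) and 6 were lower (14.5%), with a median of −0.28 against 0.01 for all genes. The count of higher genes was also 0 with the DESeq2 Wald test and at an unadjusted edgeR p under 0.05, which 19.5% of all genes passed in that direction. Fasting raised 4 genes in WT (16.2%) and lowered 2 (18.3%). In KO liver fasting raised 4 genes (21.1%) and lowered 1 (20.3%), or 3 when library totals alone scaled the libraries. The genotype effect was called different between feeding states for 1 gene, Apoa5, whose difference was positive (background 1.07% positive, 0.633% negative). None passed with a negative difference, nor did any with the DESeq2 Wald test. At an unadjusted edgeR p under 0.05, 2 genes had a positive difference (10.1% of all genes) and 2 a negative one (6.99%).

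The scaling matters for small genotype effects. TMM factors ran from 0.903 to 0.966 for WT and from 1 to 1.141 for KO. With library totals alone, the median of all genes in KO minus WT was 0.21 in the fed state and 0.20 after fasting, so changes are reported relative to the TMM-scaled bulk of genes. Under those totals 3 genes were lower in fasted KO instead of 6, which were Apoa1, Apoa2 and Apom. Markers of another liver cell type moved with genotype. The summed level of 11 stellate cell markers was 433 to 511 CPM in fed WT, 599.7 to 693 in fed KO, 471 to 509 in fasted WT and 613 to 677 in fasted KO. Of the 11, edgeR called 8 higher in fed KO (14.0% of all genes tested) and 5 in fasted KO (13.8%). None of the 11 was at 0 counts in any group. Of 12 hepatocyte markers, 6 were called lower (16.9% of all genes tested) and 1 higher (14.0%) in fed KO. In fasted KO 5 were lower (14.5%) and 1 higher (13.8%). Of 13 macrophage markers 1 was called higher in KO in each feeding state. No endothelial marker (8 tested) or bile duct marker (5 tested) was called between genotypes. The part of these markers in the apolipoprotein differences was not tested.

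**Figure D2:**
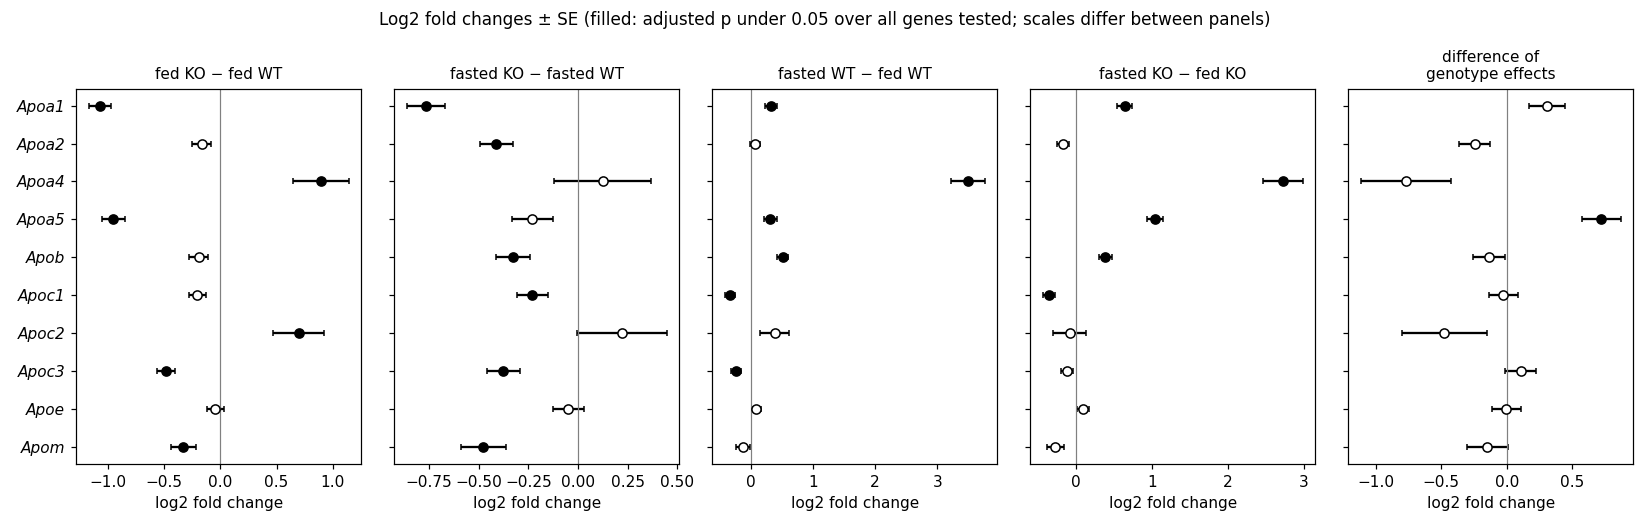
Log2 fold change ± SE of each apolipoprotein gene in the 4 comparisons and for the difference of the genotype effects (fasted minus fed); filled points have an adjusted p under 0.05 in edgeR, and the scale of the axis differs between panels. Apoa1 lies at −1.07 and −0.77 in the genotype panels and Apoa4 at 3.49 and 2.72 in the fasting panels, while all 5 points of Apoe are open.

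Of Apoa1, Apoa2 and Apom, whose proteins are carried mainly on high-density lipoprotein, Apoa1 had the largest genotype differences. It encodes apolipoprotein A-I, the main structural protein of that particle and the activator of the enzyme that esterifies its cholesterol. Its level in libraries 1 to 4 was 8588, 9062, 9480 and 8911 CPM in WT and 4245, 4936, 3680 and 4288 CPM in KO of the fed state. After fasting it was 10744, 11767, 11542 and 11245 CPM in WT and 7689, 7020, 6202 and 5726 CPM in KO. Every KO library lay below every WT library, fed or fasted, and fed KO stood lowest of the 4 groups. Apoa1 was 2.10-fold lower in fed KO (log2 fold change −1.07 ± 0.10, edgeR adjusted p = 2.56e-07) and 1.70-fold lower in fasted KO (−0.77 ± 0.10, edgeR adjusted p = 1.32e-05). Fasting raised it by 0.33 ± 0.10 in WT (edgeR adjusted p = 0.0120) and by 0.64 ± 0.10 in KO (adjusted p = 4.48e-05), and groups did not overlap in either case. The difference of the genotype effects was 0.31 ± 0.14 and did not pass (edgeR adjusted p = 0.257; 0.33 and 0.369 without fasted WT libraries 2 and 4). Without fasted WT libraries 2 and 4 the fasted genotype difference was −0.74 (adjusted p = 0.000517), and the fasting rise in WT was 0.30 but no longer passed (adjusted p = 0.0748). Under library totals alone both genotype differences kept their call, at −0.85 and −0.58.

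Apoa2, another abundant protein of high-density lipoprotein, differed by genotype in the fasted state. It was at 4414, 4591, 5014 and 4923 CPM in WT and at 3797, 4621, 4191 and 4272 CPM in KO of the fed state, with overlapping groups (log2 fold change −0.17 ± 0.08, edgeR adjusted p = 0.136; 0.05 under library totals alone). Fasted WT had 4574, 4855, 5028 and 5469 CPM and fasted KO 3995, 3689, 3412 and 3872 CPM, so that all fasted KO libraries lay below all others in the fasted state. The fasted genotype difference was −0.41 ± 0.08 (edgeR adjusted p = 0.00104), and −0.36 without fasted WT libraries 2 and 4 (adjusted p = 0.0175). The test of the difference between the fed and fasted genotype effects did not pass (−0.25 ± 0.12, edgeR adjusted p = 0.289). It was −0.19 without fasted WT libraries 2 and 4 (adjusted p = 0.542). Neither fasting comparison passed, at 0.07 ± 0.08 in WT (edgeR adjusted p = 0.537; 0.02 without fasted WT libraries 2 and 4) and −0.17 ± 0.08 in KO (adjusted p = 0.100; −0.25 and 0.0141 under library totals alone).

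Apom encodes the carrier of sphingosine-1-phosphate on high-density lipoprotein. It was lowest in fasted KO, with 189, 185, 148 and 139 CPM, against 273, 240.4, 191 and 215 CPM in fasted WT. The fed groups had 244, 259, 256 and 246 CPM in WT and 179, 229, 192 and 200.4 CPM in KO. In each feeding state the KO libraries lay below the WT libraries, by a narrow margin after fasting. The differences were −0.48 ± 0.11 after fasting (edgeR adjusted p = 0.00351; −0.49 and 0.0206 without fasted WT libraries 2 and 4) and −0.33 ± 0.11 in the fed state (adjusted p = 0.0325). The fed call was lost under library totals alone (−0.11, edgeR adjusted p = 0.423) and on leaving out any of fed WT libraries 2, 3 and 4 or fed KO libraries 1, 3 and 4, with log2 fold changes from −0.34 to −0.28. Fasting gave −0.13 ± 0.11 in WT and −0.28 ± 0.11 in KO, neither of which passed (edgeR adjusted p = 0.408 and 0.0538; the WT value was −0.12 without fasted WT libraries 2 and 4). The KO value passed under 5 settings other than leaving out a library, among them library totals alone (−0.36, adjusted p = 0.00948) and the replicate block (−0.29, adjusted p = 0.0283).

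**Figure D3:**
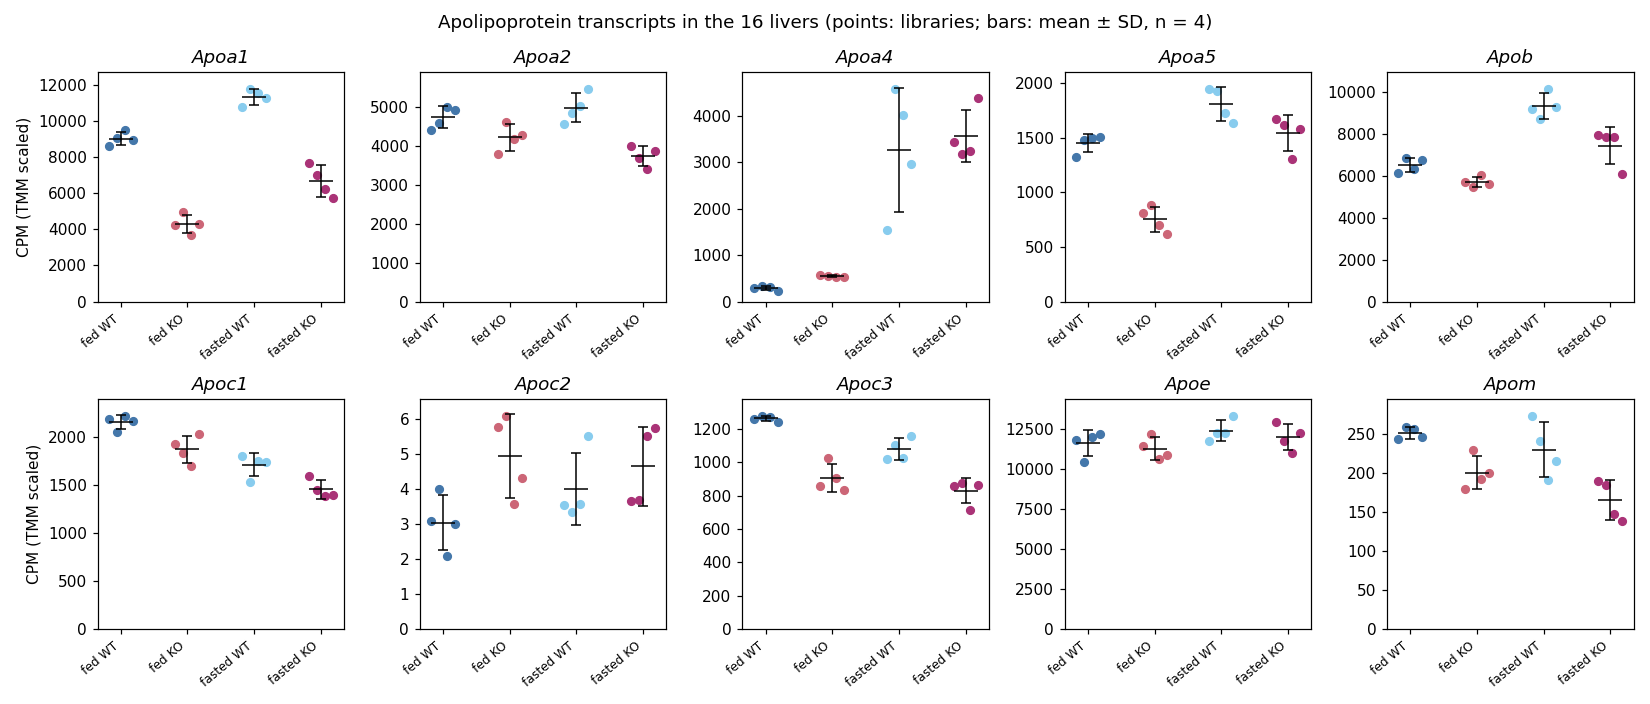
CPM of the 10 apolipoprotein genes in each of the 16 libraries (points), with the mean and SD of each group of 4 (bars); every vertical axis starts at 0. Apoa1 separates the genotypes in both feeding states, Apoa4 separates fed from fasted with fasted WT spread from 1533 to 4573 CPM, and the groups of Apoe overlap.

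Apoa4 encodes apolipoprotein A-IV, which rides on high-density lipoprotein and chylomicrons and is made by the intestine and, in mice, also by the liver. It had the widest range of the 10 genes, with an SD of log2 CPM over the 16 libraries of 1.65 against 0.098 for Apoe. Fed WT libraries had 283, 345, 304 and 233 CPM, and fed KO libraries 562, 559.6, 518 and 524 CPM. Fasted WT libraries had 1533, 4573, 4005 and 2955 CPM, and fasted KO libraries 3422, 3182, 3246 and 4387 CPM. All fasted libraries exceeded all fed ones, and all fed KO exceeded all fed WT, whereas the fasted genotypes overlapped. Fasted WT was widely spread (SD 40.9% of the mean), with library 1 lowest. That library did not pass Dixon's critical value, which is used in a closing section. Fasting raised Apoa4 11.2-fold in WT (log2 fold change 3.49 ± 0.27, edgeR adjusted p = 2.20e-07; 3.25 without fasted WT libraries 2 and 4) and 6.58-fold in KO (2.72 ± 0.26, adjusted p = 2.05e-06). In the fed state KO was 1.86-fold above WT (0.89 ± 0.25, edgeR adjusted p = 0.0140). After fasting the genotype difference was 0.12 ± 0.24 (edgeR adjusted p = 0.749), with a 95% interval of −0.35 to 0.60. It turned to −0.11 without fasted WT library 1 and was 0.36 without libraries 2 and 4 (edgeR adjusted p = 0.401). The genotype effect differed between feeding states by −0.77 ± 0.35 and did not pass (edgeR adjusted p = 0.275), but without fasted WT library 1 it was −1.003 and passed (adjusted p = 0.0261). With fasted WT libraries 2 and 4 left out it was −0.53 and did not pass (edgeR adjusted p = 0.538). Enterocyte markers were checked because the intestine is the other main source of this transcript: Cdx2 had 0 counts in all 16 libraries, and Sis, Lct, Rbp2, Mep1a, Vil1 and Alpi had at most 14 counts in any library. Of the 10 enterocyte markers the others were Slc5a1 at 15 to 60 counts, and Fabp2 and Anpep, which hepatocytes also express, at 476 to 3205 and 2812 to 5189 counts; the summed level was 203 to 236 CPM in fed WT, 153 to 172 in fed KO, 262 to 305.5 in fasted WT and 253 to 272 in fasted KO.

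Apoa5, Apoc2 and Apoc3 act on lipoprotein lipase, the enzyme that releases fatty acids from circulating triglyceride. Apoa5 promotes that hydrolysis. Its level was 1326, 1484, 1499 and 1504 CPM in WT and 808, 882, 701 and 618 CPM in KO of the fed state. After fasting it was 1947, 1929, 1729 and 1634 CPM in WT and 1668, 1620, 1309 and 1576 CPM in KO. The fed KO libraries formed the low group, with every value under every other library, while the fasted genotypes overlapped. Apoa5 was 1.93-fold lower in fed KO (log2 fold change −0.95 ± 0.11, edgeR adjusted p = 2.97e-06). After fasting the difference was −0.23 ± 0.11 and did not pass (edgeR adjusted p = 0.111; −0.25 and 0.183 without fasted WT libraries 2 and 4). Fasting raised Apoa5 by 0.32 ± 0.11 in WT (edgeR adjusted p = 0.0249) and by 1.04 ± 0.11 in KO (adjusted p = 5.46e-07). The WT rise lost its call under library totals alone (adjusted p = 0.0536), without fed WT library 1, and without fasted WT library 1 or 2, with log2 fold changes from 0.27 to 0.28; without fasted WT libraries 2 and 4 together it was 0.34 (adjusted p = 0.0623).

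Apoa5 was the 1 gene of the 10 whose genotype effect was called different between feeding states, which does not show that the others did not differ. The difference was 0.72 ± 0.15 on the log2 scale (edgeR adjusted p = 0.0217), so the KO to WT ratio was 1.65-fold higher after fasting than in the fed state. The call was lost without fed KO library 3 (0.69, edgeR adjusted p = 0.0522) and without fasted WT libraries 2 and 4 (0.70, adjusted p = 0.0755), with little change in size. It held under the other scalings, at 0.70 with DESeq2 size factors and 0.68 with library totals alone.

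Apoc3 encodes an inhibitor of lipoprotein lipase and of remnant uptake. It was at 1264, 1279, 1275 and 1245 CPM in WT and at 859, 1026, 904 and 835 CPM in KO of the fed state. Fasted WT had 1023, 1105, 1026 and 1161 CPM and fasted KO 860, 879, 717 and 865 CPM. In each feeding state all KO libraries were below all WT libraries. The differences were −0.48 ± 0.08 in the fed state (edgeR adjusted p = 0.000255) and −0.38 ± 0.08 after fasting (adjusted p = 0.00203). Without fasted WT libraries 2 and 4 the fasted value was −0.30 (adjusted p = 0.0403), and under library totals alone it was −0.19 and did not pass (edgeR adjusted p = 0.0772). Fasting lowered Apoc3 in WT (log2 fold change −0.23 ± 0.08, edgeR adjusted p = 0.0363), a call that was lost with DESeq2 size factors (adjusted p = 0.0514) and on leaving out any of 8 single libraries, which were all 4 of fed WT, fasted WT 1, 2 and 3 and fasted KO 1 (−0.24 to −0.21). It was −0.31 and passed without fasted WT libraries 2 and 4 (edgeR adjusted p = 0.0354). In KO the fasting value was −0.13 ± 0.08 and did not pass (edgeR adjusted p = 0.234).

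Apoc2 encodes the cofactor that lipoprotein lipase needs, and its deposited counts were very low, 45 to 159 reads per library. Of its 813 exon bases, 646 (79.5%) are shared on the same strand with the predicted gene Gm44805, which was at 0 counts in all 16 libraries. How many Apoc2 reads met both genes and were left uncounted cannot be told apart from low expression, so the level of Apoc2 here is uncertain. Its values in fed WT were 3.10, 3.998, 2.09 and 2.99 CPM and those in fed KO 5.79, 6.09, 3.57 and 4.32 CPM, and the groups overlapped. The fed genotype difference was 0.70 ± 0.23 (edgeR adjusted p = 0.0279), and it lost its call without fed WT library 1, 3 or 4 or fed KO library 1 or 2 (0.55 to 0.70). Fasted WT had 3.56, 3.34, 3.57 and 5.53 CPM and fasted KO 3.65, 3.69, 5.51 and 5.75 CPM. No other comparison of Apoc2 passed, with a fasted genotype value of 0.22 ± 0.23 (edgeR adjusted p = 0.507; 0.38 and 0.339 without fasted WT libraries 2 and 4) and a fasting value in WT of 0.39 ± 0.24 (adjusted p = 0.221; 0.22 and 0.597).

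Apob encodes the structural protein of very-low-density and low-density lipoprotein, of which each particle carries a single copy. It was at 6138, 6850, 6329 and 6727 CPM in WT and at 5697, 5444, 6027 and 5616 CPM in KO of the fed state. After fasting it was at 9190, 8683, 10143 and 9268 CPM in WT and at 7941, 7854, 7825 and 6094 CPM in KO. Within each genotype all fasted libraries exceeded all fed ones, and in each feeding state all KO libraries were below all WT ones. Fasting raised Apob 1.43-fold in WT (log2 fold change 0.52 ± 0.09, edgeR adjusted p = 0.000137; 0.57 without fasted WT libraries 2 and 4) and 1.30-fold in KO (0.38 ± 0.09, adjusted p = 0.00170). The genotype difference passed after fasting, at −0.33 ± 0.09 (edgeR adjusted p = 0.00824; −0.38 and 0.0188 without fasted WT libraries 2 and 4), but not in the fed state, at −0.19 ± 0.09 (adjusted p = 0.0987). Under library totals alone the fasted value was −0.14 and did not pass (edgeR adjusted p = 0.180), and the fed value was 0.03. The test of the difference between those genotype effects did not pass (−0.13 ± 0.12, edgeR adjusted p = 0.633; −0.18 and 0.590 without fasted WT libraries 2 and 4).

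Apoc1 encodes a small exchangeable protein that hinders receptor uptake of remnants. It was the member that fasting lowered in both genotypes. Its values were 2192, 2053, 2222 and 2167 CPM in fed WT and 1807, 1537, 1757 and 1747 CPM in fasted WT. KO livers had 1929, 1837, 1700 and 2033 CPM when fed and 1600, 1454, 1384 and 1395 CPM when fasted. All fasted libraries of a genotype lay below all its fed libraries. The log2 fold change with fasting was −0.33 ± 0.08 in WT (edgeR adjusted p = 0.00256; −0.28 and 0.0384 without fasted WT libraries 2 and 4) and −0.36 ± 0.08 in KO (adjusted p = 0.00114). The genotype difference was −0.20 ± 0.08 in the fed state (edgeR adjusted p = 0.0545; 0.02 under library totals alone). After fasting it was −0.23 ± 0.08 with overlapping groups (edgeR adjusted p = 0.0324), a call lost under library totals alone (−0.05), with no filter on low counts (adjusted p = 0.0768), with only the 8 fasted libraries fitted (0.0612) and without any of fasted WT 1, 3 and 4 or fasted KO 2, 3 and 4 (−0.23 to −0.20). Without fasted WT libraries 2 and 4 together it was −0.29 and passed (edgeR adjusted p = 0.0356).

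Apoe encodes the ligand by which remnants are taken up through receptors of the low-density lipoprotein receptor family. It was the steadiest of the 10 genes. Fed livers had 11833, 10467, 12022 and 12200 CPM in WT, with 11426, 12218, 10609 and 10869 CPM in KO. Fasted livers had 11782, 12265, 12280 and 13318 CPM in WT, with 12946, 11768, 11017 and 12252 CPM in KO. The 4 groups overlapped. The genotype values were −0.04 ± 0.08 in the fed state (95% interval −0.20 to 0.11, edgeR adjusted p = 0.703) and −0.05 ± 0.08 after fasting (−0.20 to 0.10, adjusted p = 0.685), and they were 0.18 and 0.14 under library totals alone. Fasting gave 0.09 ± 0.08 in each genotype (edgeR adjusted p = 0.388 in WT and 0.387 in KO), with intervals that reached 0.25 in WT and 0.24 in KO. Without fasted WT libraries 2 and 4 the fasted genotype value was −0.0041 and the fasting value in WT 0.047.

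Ratios of genes of the same cluster within a library do not depend on the scaling between libraries. For 5 ratios and 4 comparisons, 20 exact two-sided permutation tests over the 70 splits of 4 against 4 libraries were run, the smallest p being 0.0286. At that p stood 14 of the 20, with a Benjamini-Hochberg adjusted p of 0.0408 over the 20. Apoa1 and Apoc3, which are 2466 bp apart and on opposite strands, changed unequally in all 4 comparisons. The log2 ratio of Apoa1 to Apoc3 counts was 2.83 ± 0.05 in fed WT, 2.24 ± 0.15 in fed KO, 3.39 ± 0.09 in fasted WT and 2.999 ± 0.19 in fasted KO (SD, n = 4; exact permutation p = 0.0286 in each comparison). Apoa1 was thus lower relative to Apoc3 in KO and higher relative to it after fasting, with no overlap between the groups compared.

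The ratio of Apoa4 to Apoc3 differed more. It was −2.13 ± 0.22 in fed WT, −0.74 ± 0.12 in fed KO, 1.49 ± 0.68 in fasted WT and 2.09 ± 0.21 in fasted KO (log2, SD, n = 4), and only the fasted genotype comparison overlapped (exact permutation p = 0.143, adjusted 0.168). The log2 ratio of Apoa5 to Apoa4, with Apoa4 now the denominator, was 2.33 ± 0.25, 0.46 ± 0.17, −0.74 ± 0.75 and −1.20 ± 0.24 in the same order of groups. Apoa4 was thus also higher relative to Apoa5 in fed KO and after fasting. Again only the fasted genotypes overlapped (exact permutation p = 0.314, adjusted 0.331). On chromosome 7 the log2 ratio of Apoe to Apoc1 rose with fasting by 0.43 in WT and 0.45 in KO (exact permutation p = 0.0286 each). Between genotypes it differed by 0.16 in the fed state (exact permutation p = 0.114, adjusted 0.143) and 0.18 after fasting (0.0571, adjusted 0.0762). The ratio of Apoc1 to Apoc2 fell by 0.90 in fed KO and by 0.73 with fasting in WT (exact permutation p = 0.0286 each), and rests on the low counts of Apoc2.

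**Figure D4:**
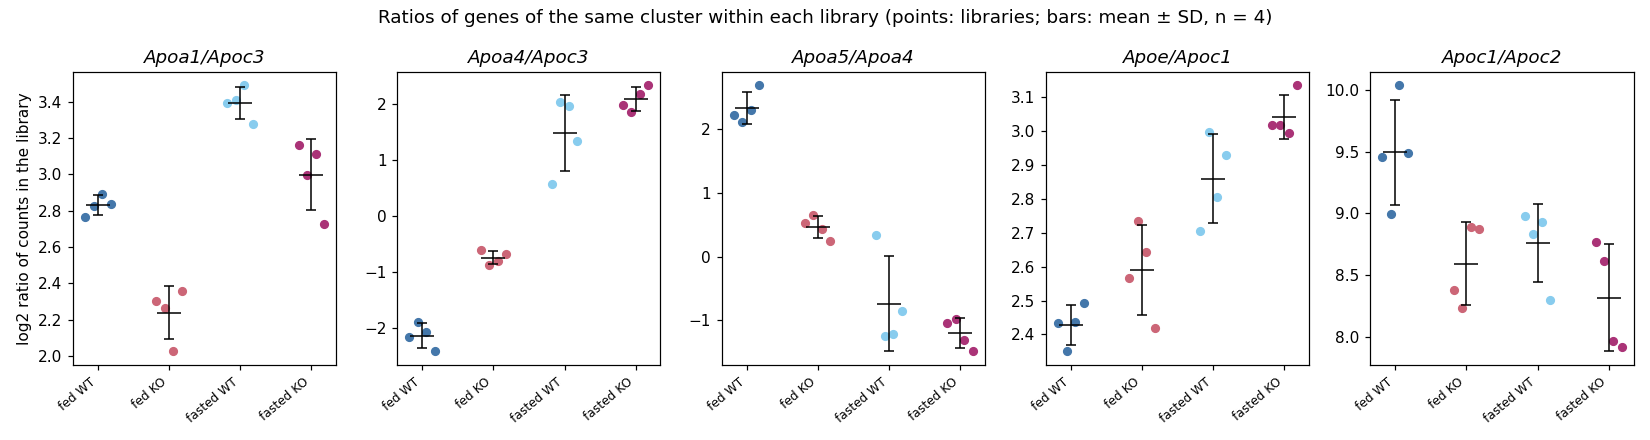
Log2 ratio of the counts of apolipoprotein genes of the same cluster within each library (points), with the mean and SD of each group of 4 (bars); the vertical axes differ and do not start at 0. The Apoa1 to Apoc3 ratio is lowest in fed KO at 2.24, and the Apoa4 to Apoc3 ratio climbs from −2.13 in fed WT to 2.09 in fasted KO.

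The other genes within 100 kb of either cluster, a set chosen after values were seen, were compared with the members. Around the chromosome 9 cluster 4 of 10 such genes were tested, and in fed KO 2 of them rose, Zpr1 by 1.04 ± 0.30 (edgeR adjusted p = 0.0192) and Bud13 by 1.65 ± 0.44 (adjusted p = 0.0129), where Apoa1, Apoc3 and Apoa5 fell and Apoa4 rose (background 14.0% higher). In fasted KO 1 of the 4 was higher (background 13.8%), and with fasting in WT 1 was higher (16.2%) and 1 lower (18.3%). With fasting in KO 1 was higher (21.1%) and 3 lower (20.3%), with a median of −0.86. Zpr1 (log2 fold change −1.29) and Bud13 (−1.94) fell with fasting in KO, where Apoa1, Apoa4 and Apoa5 rose. Gm10680, annotated antisense over 632 of the 1815 exon bases of Apoa4, rose with fasting by 2.11 ± 0.62 in WT (edgeR adjusted p = 0.0131) and 2.93 ± 0.50 in KO (adjusted p = 0.000132). It had 126 counts in all 16 libraries together. The strand setting of the counting is not given in the sources used here, so reads of Gm10680 and of Apoa4 cannot be told apart by strand. Gm47528 over Apoa4 and Gm47544 over Apoa5, also on the opposite strand, had 26 and 24 counts in all. Around the chromosome 7 cluster, with Apoc4 left out, 9 of 14 genes were tested. In fed KO 1 was higher (background 14.0%) and 1 lower (16.9%), and in fasted KO 5 were higher (13.8%) and 1 lower (14.5%). With fasting, 2 were higher (16.2%) and 2 lower (18.3%) in WT, and 3 higher (21.1%) and 1 lower (20.3%) in KO. Nectin2 rose with fasting by 0.53 ± 0.08 in WT (edgeR adjusted p = 3.67e-05) and 0.92 ± 0.08 in KO (adjusted p = 5.49e-08), where Apoe gave 0.09 in both and Apoc1 fell.

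Lists of other lipoprotein genes were counted by the same calls, beside the background shares above. Of 18 other apolipoprotein and lipoprotein-bound genes 13 were tested: none rose and 5 fell in fed KO, and none rose and 7 fell in fasted KO (5 without fasted WT libraries 2 and 4). Under library totals alone the fed split was 2 higher and 5 lower. The median log2 fold change of the list was −0.64 in the fed state and −0.72 after fasting, against −0.01 and 0.01 for all genes. Apon, a high-density lipoprotein gene of rodents, fell from 349 ± 13.5 CPM in fed WT to 210.1 ± 29.8 in fed KO (SD, n = 4; edgeR adjusted p = 1.77e-05) and from 445 ± 41.4 to 278 ± 23.1 CPM after fasting (adjusted p = 3.80e-05). Saa4, a constitutive serum amyloid A protein of the same particle, had 457 ± 245 CPM in fed WT and 94.5 ± 19.99 in fed KO (edgeR adjusted p = 0.000181). Apof fell by 0.52 ± 0.08 in fasted KO (edgeR adjusted p = 0.000142). With fasting 2 of the 13 rose and 3 fell in WT (1 without fasted WT libraries 2 and 4), and 2 rose and 4 fell in KO (1 and 6 under library totals alone). Apoc4, the gene between Apoc2 and Apoc1, rose with fasting in WT by 0.49 ± 0.08 (edgeR adjusted p = 0.000132), Saa4 fell by 1.97 ± 0.31 there (adjusted p = 0.000330), and in KO Apon rose by 0.40 ± 0.10 (adjusted p = 0.00243) and Apol7a fell by 0.67 ± 0.19 (adjusted p = 0.00954). Gm44805, the predicted gene that overlaps Apoc2, also spans most of Apoc4 on the same strand. Their shared exon bases were not computed, so some reads of Apoc4 may also have been left uncounted.

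Genes of particle assembly and secretion moved in both directions. Of 31 genes 30 were tested: 4 rose and 12 fell in fed KO, and 3 rose and 9 fell in fasted KO (2 and 5 without fasted WT libraries 2 and 4). These splits turned to 12 and 4, and to 9 and 3, under library totals alone. Sort1, a sorting receptor that binds apolipoprotein B, fell by 0.69 ± 0.09 in fed KO (edgeR adjusted p = 1.47e-05) and by 0.75 ± 0.09 in fasted KO (adjusted p = 7.46e-06). Aadac, a lipase of the endoplasmic reticulum, fell by 0.61 ± 0.08 in fed KO (edgeR adjusted p = 2.23e-05), and Lpcat3, which remodels phospholipids of the particle, rose by 0.55 ± 0.08 in fasted KO (adjusted p = 3.23e-05). With fasting 9 rose and 8 fell in WT (6 and 7 without fasted WT libraries 2 and 4), and 11 rose and 9 fell in KO. Dgat1, which makes triglyceride, rose by 0.87 ± 0.07 in WT and 0.67 ± 0.07 in KO (edgeR adjusted p = 5.40e-08 and 1.27e-06), and Tor1a by 1.09 ± 0.08 and 0.93 ± 0.08 (4.58e-09 and 3.72e-08). Of genes picked after their values were seen, Mttp, which loads lipid onto apolipoprotein B, rose with fasting by 0.50 in WT and 0.49 in KO, and Apobec1, the enzyme that edits the Apob transcript, fell (−1.02 and −0.81). Tm6sf2 was the 1 gene of this list whose genotype effect was called different between feeding states (−0.91 ± 0.17, edgeR adjusted p = 0.0134). That call was lost without fasted WT libraries 2 and 4.

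Genes that act on particles in plasma were a smaller list of 15, all tested. In fed KO 4 rose and 3 fell, in fasted KO 2 rose and 3 fell, with fasting in WT 4 rose and 5 fell, and with fasting in KO 2 rose and 4 fell. Leaving out fasted WT libraries 2 and 4, 1 rose and 3 fell in fasted KO, and 3 rose and 3 fell with fasting in WT. The hepatic lipase gene Lipc fell by 0.56 ± 0.08 in fed KO (edgeR adjusted p = 7.52e-05) and by 0.55 ± 0.08 with fasting in WT (adjusted p = 5.17e-05). Lmf1, needed for lipases to mature, fell by 0.46 ± 0.08 in fasted KO (edgeR adjusted p = 0.000420) and by 0.48 ± 0.08 with fasting in KO (adjusted p = 0.000154). Pla2g7, a lipoprotein-bound phospholipase, rose with fasting by 1.27 ± 0.19 in WT and 0.95 ± 0.18 in KO (edgeR adjusted p = 5.53e-05 and 0.000455).

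Receptor and clearance genes included changes of several log2 units. Of 21 genes 19 were tested: 2 rose and 5 fell in fed KO, 4 rose and 3 fell in fasted KO, 5 rose and 5 fell with fasting in WT, and 5 rose and 7 fell in KO. Under library totals alone the first 3 splits were 7 and 1, 5 and 0, and 4 and 8. The second was 4 and 2 and the third 4 and 4 without fasted WT libraries 2 and 4. Vldlr, the very-low-density lipoprotein receptor, was at 0.722 ± 0.301 CPM in fed WT and 17.9 ± 4.83 in fed KO, and at 1.87 ± 0.458 and 25.3 ± 4.97 CPM after fasting (edgeR adjusted p = 1.75e-08 and 6.29e-08). The fatty acid receptor gene Cd36 rose from 31.2 ± 4.17 to 159 ± 31.8 CPM in fed KO and from 50.9 ± 4.85 to 227 ± 27.5 CPM in fasted KO (edgeR adjusted p = 4.82e-09 and 1.21e-08). Lrp1 fell by 0.80 ± 0.09 with fasting in WT and Lsr fell by 0.68 ± 0.11 with fasting in KO (edgeR adjusted p = 2.69e-06 and 7.77e-05).

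Regulators of transcription that act on apolipoprotein genes formed a list of 35, all tested. In fed KO 3 rose and 6 fell (8 and 3 under library totals alone), in fasted KO 4 rose and 4 fell (6 and 0 under library totals alone; 4 and 0 without fasted WT libraries 2 and 4). With fasting 6 rose and 8 fell in WT (4 and 8 without fasted WT libraries 2 and 4), and 7 rose and 10 fell in KO (5 and 12 under library totals alone). Ppara, the fatty acid receptor that drives fasting genes, was at 87.7 ± 15.5 CPM in fed WT and 47.3 ± 13.2 in fed KO (SD, n = 4; edgeR adjusted p = 0.00142). Creb3l3, a membrane-bound factor that activates Apoa4 and Apoa5 in liver, fell by 0.50 ± 0.09 in fed KO (edgeR adjusted p = 0.000255), where Apoa4 rose and Apoa5 fell. Rora and Rxrb rose by 0.67 ± 0.10 and 0.58 ± 0.09 in fasted KO (edgeR adjusted p = 4.17e-05 and 0.000114). Mlxipl, the carbohydrate response factor, fell with fasting (log2 fold change −1.71 ± 0.11 in WT and −1.42 ± 0.11 in KO), as did Stat5b (−0.72 ± 0.09 and −0.78 ± 0.09; edgeR adjusted p from 1.89e-09 to 4.91e-06).

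**Figure D5:**
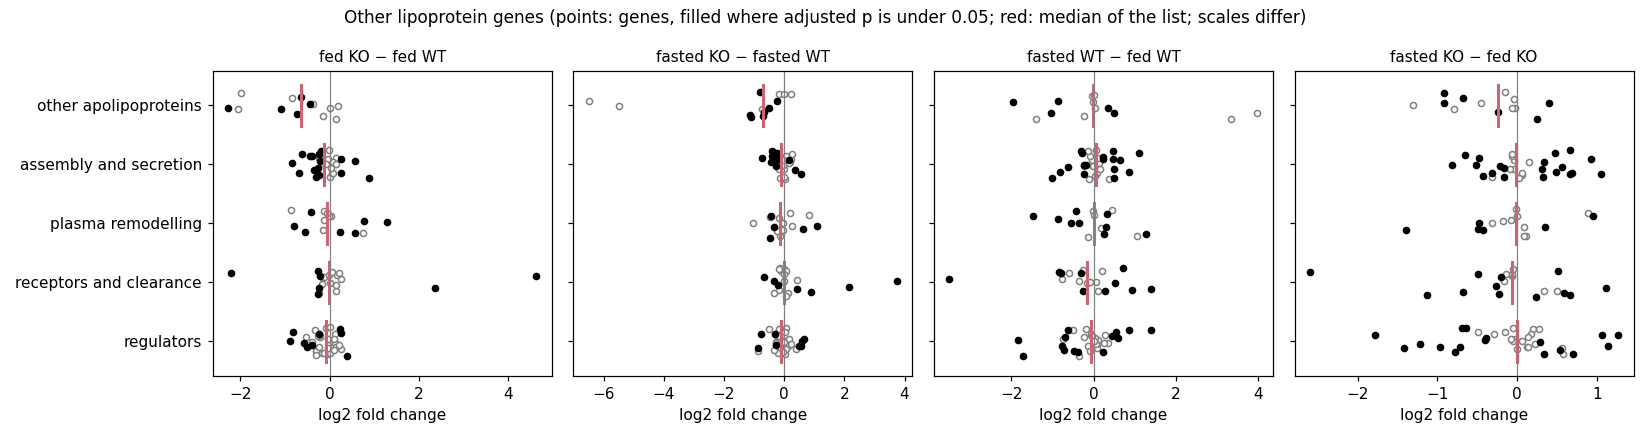
Log2 fold change of each tested gene in the 5 lists of other lipoprotein genes, by comparison; filled points have an adjusted p under 0.05 in edgeR, red marks are list medians, and the axes differ. The list of other apolipoproteins has its median at −0.64 and −0.72 in the genotype panels, and Vldlr stands far to the right among the receptors.

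The genes most like the members in pattern were found by the root mean square difference of centred log2 CPM over the 16 libraries, for the pair of apolipoprotein genes with the largest SD. Nearest to Apoa4 were Lamb3 (0.34), Vnn1 (0.41), Cntnap1 (0.45) and Scn4b (0.48). Scn4b had a mean of only 0.0216 CPM in fed WT, 0.0511 in fed KO, 1.26 in fasted WT and 0.860 in fasted KO. Its likeness therefore rests on very low counts. Vnn1, a pantetheinase gene of hepatocytes, had a mean of 26.9 CPM in fed WT, 46.9 in fed KO, 216 in fasted WT and 225 in fasted KO, and Lamb3, a laminin chain gene, 3.30, 6.33, 31.4 and 46.5 CPM. Nearest to Apoa1 were Aadat (0.15), Chpt1 (0.16), Apon (0.16) and Mug1 (0.19). Mug1, a secreted protease inhibitor of the liver, had a mean of 8400 CPM in fed WT, 3994 in fed KO, 12445 in fasted WT and 7118 in fasted KO, so that, as for Apoa1, the fed KO mean was the lowest and the fasted WT mean the highest. Aadat, an aminotransferase gene, had 159.8, 74.3, 238 and 125 CPM in the same order. The likeness measure describes these 16 libraries and has no test.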

How the data were processed

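Liver RNA of 16 samples in 4 groups of 4 was measured. The deposited values are the authors' raw counts per gene; per the submitters' processing notes cutadapt 1.8, STAR 2.5.3a and HTSeq 0.9.1 were used with GRCm38. Neither the annotation release nor the strand setting of the counting is given in the sources used here. Summary lines naming no gene were left out of library sizes. Reads aligned to several places made up 40.4 to 45.8% of all counts in WT libraries and 32.0 to 39.3% in KO libraries. The genotypes did not overlap in this share, and its part in the genotype differences was not tested. Reads in no feature made up 2.98 to 4.29% and ambiguous reads 1.05 to 1.65%. Positions and exon lengths (union of exons) came from GENCODE M21, which held 99.8% of the identifiers.

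From the counts, edgeR 4.0.16 (R 4.3.3, limma 3.58.1) kept 13905 genes (filterByExpr), scaled by TMM, and fitted all 16 libraries with 1 coefficient per group (12 residual degrees of freedom, common biological coefficient of variation 0.138). Contrasts were tested by the robust quasi-likelihood F test, with p adjusted over all genes tested; SEs were derived from the F statistic. CPM and RPKM values use TMM-scaled library sizes; log2 ratios add 0.5 to each count. Alternatives were DESeq2 1.42.0 (Wald test or size factors), library totals alone, no filter, no robust estimation, the replicate block, only the 8 libraries compared, adjusted p under 0.01, fasted WT libraries 2 and 4 left out, and each library left out. On counts simulated for the fed comparison (13731 genes), 29 of 67 genes changed 1.5-fold were recovered, 55 of 67 changed 2-fold and 65 of 66 changed 4-fold, with 7 false calls. The simulation changed only 200 genes, up or down at random, whereas 4299 genes were called in the real fed comparison. Its recovery and false calls therefore need not hold for these data.

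The members and all lists were chosen with earlier results of these data known. All 10 members are named; from each list, up to 2 called genes per comparison with the smallest p, and the 4 genes most like each of the 2 members with the largest SD. Some genes that this rule names are not reported here. Intervals cover the model's error only.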

Additional observations from a re-analysis of the deposited data

Results flagged for a closer look

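In 4 of 40 sets of a gene and a group, 1 library lay apart from the other 3; the gap to its nearest neighbour, as a share of the group's range, was above Dixon's 95% critical value for 4 samples, which chance passes in about 1 in 20 groups. For Apoa5 in fed WT the share was 0.886, from library 1 at 1326 CPM against 1484 to 1504 CPM. For Apob in fasted KO it was 0.938, from library 4 at 6094 CPM against 7825 to 7941 CPM. For Apoc2 in fasted WT it was 0.893, from library 4 at 5.53 CPM against 3.34 to 3.57 CPM. For Apoc3 in fasted KO it was 0.881, from library 3 at 717 CPM against 860 to 879 CPM.

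The genotype effect on Apoa5 differed between feeding states by 0.72 on the log2 scale (edgeR adjusted p = 0.0217), from −0.95 in the fed state to −0.23 after fasting.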

How the results depend on the processing

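Depth did not limit 9 of the 10 genes, whose counts were far higher; Apoc2 rests on 45 to 159 reads. Of 390 values of the 50 log2 fold changes under 8 other settings, 365 kept their direction and side of the threshold, as did 751 of 800 with 1 library left out. The cause of the changes was not tested. At an adjusted p under 0.01 the fed genotype comparison called 0 members higher and 2449 genes in all, the fasted one 2332 genes, fasting in WT 2 members higher, 1 lower and 3114 genes, and the difference of effects 0 members higher and 23 genes. Library totals alone gave 3 members lower in fasted KO and 3 lower with fasting in KO, and turned the fed genotype values of Apoa2, Apob, Apoc1 and Apoe to 0.054, 0.032, 0.016 and 0.18 and the fasted one of Apoe to 0.14. DESeq2 size factors gave 1 member lower with fasting in WT and 2 in KO. No filter and the DESeq2 Wald test each gave 2 lower with fasting in KO, and the Wald test 529 genes for the difference of effects. Without fasted WT libraries 2 and 4, fasting in WT called 2 members higher, and the difference of effects 0 members higher and 72 genes. The difference of effects of Apoe turned to 0.021 with no filter and 0.042 without those libraries.

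With 1 library left out, the fed genotype comparison called 1 to 2 members higher, 3 to 5 lower and 3202 to 4492 genes. The fasted one called 0 higher, 5 to 6 lower and 3036 to 4078 genes. Fasting called 3 to 4 higher, 1 to 2 lower and 4146 to 4946 genes in WT, and 4 higher, 1 to 2 lower and 5073 to 5922 genes in KO. The difference of effects called 0 to 1 higher, 0 to 1 lower and 87 to 523 genes. Values that changed sign ranged from −0.11 to 0.33 (Apoa4, fasted genotype), −0.22 to 0.030 (Apoc2, fasting in KO), and −0.11 to 0.014 (Apoc1) and −0.081 to 0.043 (Apoe) for the difference of effects.

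With the replicate block, 2 members were lower with fasting in KO, Apom joining at −0.29 (edgeR adjusted p = 0.0283), and no other member call changed. The numbers are not shown to pair the samples: over 24 same-number pairs the correlation of deviations was −0.17 to 0.25 (median 0.031, against −0.0055 for other pairs), and 6 of 16 libraries correlated best with their own number.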
